A study of Mus musculus with 2 samples.

Results

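Translation initiation factor genes were taken as the protein-coding genes of the RefSeq table of GRCm38.p6 (the assembly named mm10) whose symbol starts with Eif and a digit, which gave 56 genes of 21887. Binding of Arid1b, a DNA-binding subunit of BAF (mammalian SWI/SNF) complexes, which move and evict nucleosomes, was mapped by ChIP-seq, the sequencing of DNA fragments that an antibody pulls down with the protein. The groups were 1 library precipitated with an Arid1b antibody and 1 library of input chromatin without antibody. Both used cultured dental mesenchyme cells, isolated from the apical end of first lower molars of C57BL/6 wild-type mice between postnatal days 3.5 and 7.5 and grown with 10% serum. The series title and design text concern Arid1a and Gli1-CreER;Arid1a fl/fl mice, and no library of such mice was analysed here. The sources used here do not say how many animals contributed. With 1 library a group there is no replicate check, so no difference between genes was tested, and the values describe these 2 libraries.

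Initiation factors bring the initiator tRNA, the small ribosomal subunit and a capped mRNA together and then admit the large subunit. The GTPase eIF2 carries the initiator tRNA, eIF1 and eIF1A govern scanning for the start codon, eIF3 is the many-subunit scaffold on the small subunit, and eIF4E, eIF4G and the helicase eIF4A form the cap-binding complex eIF4F. A pair of control points are well known: kinases that phosphorylate eIF2 in the integrated stress response, and 4E-binding proteins that hold eIF4E away from eIF4G until mTOR phosphorylates them. Cells that divide and secrete matrix, such as dental mesenchyme, match protein synthesis to nutrients and stress through both.

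The deposited list held 8318 peaks with a fold enrichment between 1.37 and 17.1, the authors' own value at each summit. The pileup at the summit had a median of 38 fragments over a genome background level of 8.68. The weakest pileup listed at that background was 24 fragments, a fold of 2.58, so weaker enrichment in regions with that expected level was not listed. The sources used here give no total read numbers. Of the markers of the labelled cell type, 10 of 12 dental mesenchyme genes had a peak within 1 kb of a gene end, against 0 of 6 dental epithelium, 0 of 4 endothelium, 0 of 4 blood and 0 of 4 neuron and glia markers. Of all protein-coding genes, 22.2% had such a peak. Lists of 4 or 6 genes are too small for a count of 0 to be read as absence of a cell type. A peak is not an expression value, and RNA was not measured in these samples.

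An Arid1b peak reached within 1 kb of an annotated end of 24 of the 56 initiation factor genes (42.9%), called boundary peaks here. The same holds for 22.2% of all protein-coding genes. With only peaks of a fold of at least 4, the shares were 25% of the members and 10.5% of all genes. The 24 genes carried 32 boundary peaks. Of the 40 members that encode initiation factors themselves, 21 (52.5%) had a boundary peak. Of the other 16, 3 (18.8%) had one. The 16 include the eIF2 kinases, the 4E-binding proteins and Eif5a, and also Eif2a and Eif2d, whose proteins can deliver initiator tRNA. Eif4e2, whose product is known for repressing translation, was counted among the 40. These roles were assigned after a look at the values, and the contrast rests in part on weaker peaks. The strongest boundary peaks of the 3 genes had folds of 5.52 to 6.82, with a median of 6.71. Those of the 21 genes ran from 3.08 to 6.9, with a median of 4.03. A minimum fold of 4 would thus keep all 3 genes but not all of the 21. Boundary peaks lay at 4 of 5 Eif1 genes, 4 of 15 Eif2 genes, 7 of 14 Eif3 genes, 7 of 17 Eif4 genes, 1 of 4 Eif5 genes and the single Eif6 gene. The Eif2 share, 26.7%, was near that of all genes and the Eif3 share, 50%, was higher. That contrast depended on the weaker peaks: with a fold of at least 4, or with -log10 q of at least 10, 2 of 15 Eif2 genes (13.3%) and 2 of 14 Eif3 genes (14.3%) had a boundary peak, both near the 10.5% of all genes. Classes of this size give coarse shares, since a single gene moves the Eif5 share by 25 percentage points.

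**Figure D1:**
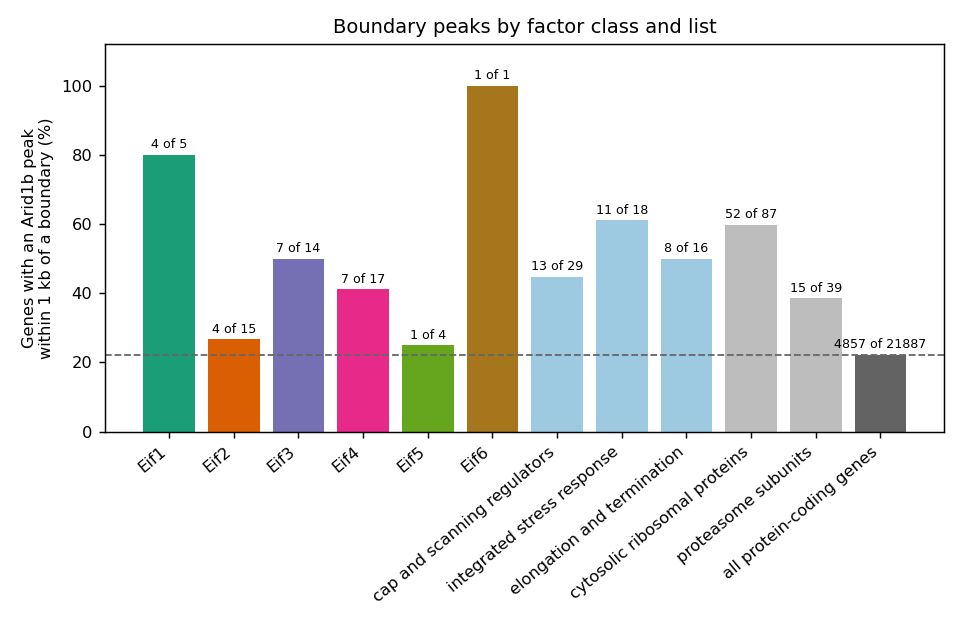
Share of genes with an Arid1b peak within 1 kb of either annotated end (vertical axis, percent), for the 6 classes of initiation factor genes by symbol, 3 lists of related translation genes, 2 lists of other cellular machinery, and all protein-coding genes. Labels give the genes with a peak and the genes in the group; the dashed line marks the 22.2% of all protein-coding genes, which the Eif2 share of 26.7% and the Eif5 share of 25% lie close to.

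The enrichment at the members was moderate. The strongest boundary peak of each of the 24 genes ranged from 3.08 to 6.90 in fold, with a median of 4.13 (quartiles 3.75 and 5.42), against a median of 3.92 (quartiles 3.44 and 4.54) over the 4833 other genes with a boundary peak. Intervals given in parentheses after a fold are exact Poisson 95% intervals of the summit pileup, which cover counting error only. The interval lay above 3.92 at 7 genes, Eif4a2, Eif1ad, Eif2ak3, Eif3b, Eif5, Eif4ebp1 and Eif4a1, and included it at the other 17. By fold, Eif4a1, the lowest of these 7, exceeded 89.7% of all genes with a boundary peak. The matching count of intervals was not made for the other genes, so the 7 cannot be compared with them. The pileups ran from 29 to 69 fragments, and 13 of the 32 peaks (40.6%, against 47.2% of all peaks) had an expected level within 0.002 fragments of the genome background. The other 19 had a higher one, though only marginally so at both Eif4g1 peaks.

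**Figure D2:**
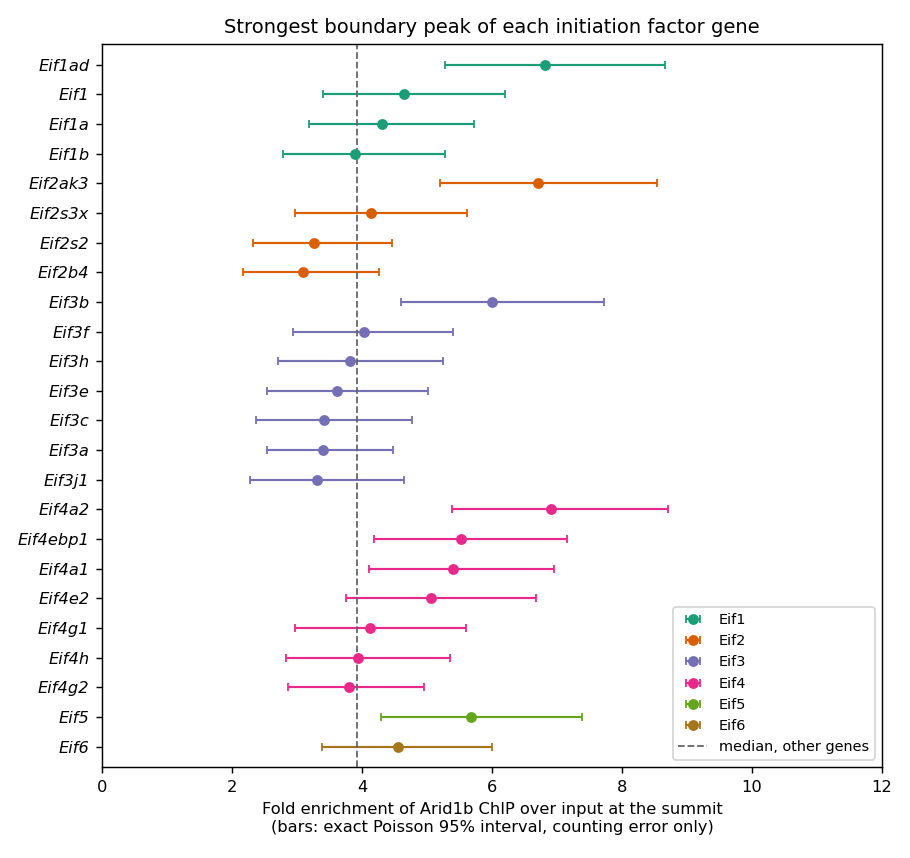
Fold enrichment of the Arid1b ChIP over input at the summit of the strongest boundary peak (horizontal axis, linear) of each of the 24 initiation factor genes that had such a peak, grouped by class. Points are the authors' values and bars exact Poisson 95% intervals of the pileup, for counting error only; the dashed line is the median of 3.92 over other genes, and the bars of 7 genes, led by Eif4a2 at 6.90, lie wholly to its right.

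The promoters whose start site lay inside a boundary peak are shown first, for the gene with the highest fold in each class. These promoters overlap a peak at the start site, though most do not hold its summit. They belong to Eif1ad, Eif2ak3, Eif4a2 and Eif5. No Eif3 start was inside a peak, and Eif3b, whose peak ended 19 bp before its start, was added after its values were seen. Each sequence is RefSeq's for GRCm38.p6, from 250 bases before the start to the first 30 transcribed bases, 5′ to 3′ along the gene. All 5 genes lie on the plus strand. The windows are chr19:5366563-5366842, chr6:70844265-70844544, chr16:23107218-23107497, chr12:111537851-111538130 and chr5:140419055-140419334, in the order in which they are printed. Capitals mark matches on either strand to the GC box GGGCGG, the ETS core TTCCGG, the CCAAT box, the AP-1 motif TGANTCA and the TATA box TATAAA. The E-box CACGTG, the cyclic AMP response element TGACGTCA, the YY1 motif AAGATGGC and the NRF1 motif were searched in the same way and had no match in these 5 windows.
Eif1ad: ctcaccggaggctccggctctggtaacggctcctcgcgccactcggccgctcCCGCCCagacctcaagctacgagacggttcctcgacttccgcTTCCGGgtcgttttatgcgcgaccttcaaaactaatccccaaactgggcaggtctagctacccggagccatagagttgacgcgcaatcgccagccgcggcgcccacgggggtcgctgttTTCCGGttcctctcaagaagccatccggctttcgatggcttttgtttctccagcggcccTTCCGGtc
Eif2ak3: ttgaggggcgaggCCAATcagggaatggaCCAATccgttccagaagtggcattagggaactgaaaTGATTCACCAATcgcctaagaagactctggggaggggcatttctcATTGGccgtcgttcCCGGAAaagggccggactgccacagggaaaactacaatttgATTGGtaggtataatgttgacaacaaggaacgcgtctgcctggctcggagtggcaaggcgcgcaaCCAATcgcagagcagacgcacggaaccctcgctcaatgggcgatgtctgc
Eif4a2: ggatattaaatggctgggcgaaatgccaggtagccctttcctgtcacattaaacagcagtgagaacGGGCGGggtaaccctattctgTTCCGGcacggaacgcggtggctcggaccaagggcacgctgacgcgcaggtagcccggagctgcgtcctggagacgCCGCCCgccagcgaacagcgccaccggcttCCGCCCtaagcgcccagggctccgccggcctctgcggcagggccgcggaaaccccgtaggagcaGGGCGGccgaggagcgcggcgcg
Eif5: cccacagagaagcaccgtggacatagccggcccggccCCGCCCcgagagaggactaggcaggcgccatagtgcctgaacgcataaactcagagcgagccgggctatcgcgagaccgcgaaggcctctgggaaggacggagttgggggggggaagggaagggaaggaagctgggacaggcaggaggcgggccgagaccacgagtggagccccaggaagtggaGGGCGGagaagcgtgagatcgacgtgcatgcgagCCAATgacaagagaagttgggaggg
Eif3b: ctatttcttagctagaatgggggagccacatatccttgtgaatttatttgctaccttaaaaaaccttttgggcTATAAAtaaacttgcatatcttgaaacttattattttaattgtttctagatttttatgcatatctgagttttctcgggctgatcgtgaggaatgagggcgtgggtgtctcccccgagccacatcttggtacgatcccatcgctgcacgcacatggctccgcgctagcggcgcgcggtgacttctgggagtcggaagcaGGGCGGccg

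These sequences differ in make-up although all overlap an Arid1b peak. All 280 printed bases of Eif1ad and of Eif2ak3 lay inside their peaks, against 237 of Eif4a2, 232 of Eif3b and 102 of Eif5. The summit lay inside the printed window at Eif2ak3 only. It lay past the window at Eif1ad, Eif4a2 and Eif5, farther into the gene, and upstream of the window at Eif3b. The Eif2ak3 window held 6 CCAAT boxes, 1 ETS core and no GC box, and 1 of the CCAAT boxes directly follows the AP-1 match. The Eif4a2 window held 4 GC boxes and 1 ETS core. The Eif1ad window held 3 ETS cores, of which the last begins at transcribed base 23, and the Eif3b window a TATAAA match at position -177 from the start. A match describes letters only and is not a binding site.

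Genes for the scanning factors and their relatives carried peaks at all but 1 gene. Eif1ad, which encodes a protein with an eIF1A-like domain, had a summit pileup of 65 fragments over an expected 8.68, a fold of 6.82 (5.28 to 8.66). Its peak at chr19:5366471-5366971 also lay at the end of Banf1. Eif1, whose product guards start codon choice, had 1 peak at each end: 4.65 (3.40 to 6.20) just inside the start and 3.10 (2.11 to 4.40) beyond the far end. Eif1b, its paralogue, had 3.88 (2.79 to 5.27). Eif1a had 4.31 (3.18 to 5.72) in a peak shared with Tmed7, whereas the X-linked Eif1ax, which also encodes eIF1A, had no peak within 1112543 bp. Only 2.48% of all X-linked genes had a boundary peak.

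In the Eif2 class, a single kinase gene had the highest fold. Eif2ak3, which encodes PERK, the endoplasmic reticulum stress kinase, had 64 fragments over an expected 8.68, a fold of 6.71 (5.19 to 8.54). Its peak at chr6:70843938-70845098 was 1161 bp wide and spanned the start. The genes of the other kinases, Eif2ak1 (HRI, sensitive to haem), Eif2ak2 (PKR, activated by double-stranded RNA) and Eif2ak4 (GCN2, activated by uncharged tRNA), had no peak inside or up to 10 kb away. The interval of Eif2ak3 lay above those of Eif2s2 and Eif2b4 and overlapped that of Eif2s3x.

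Of the eIF2 subunit genes, Eif2s2 (beta) had a fold of 3.26 (2.32 to 4.46) and the X-linked Eif2s3x (gamma) had 4.13 (2.97 to 5.61). Eif2s1, the gene of the alpha subunit that the kinases phosphorylate, had no peak within 635874 bp. Eif2s3y is on chromosome Y, where the list had 0 peaks. Among the 5 genes of eIF2B, the exchange factor that reloads eIF2 with GTP, only Eif2b4 had boundary peaks, at 3.08 (2.17 to 4.26) inside its start and 3.05 upstream, both also at the end of its neighbour Snx17. Eif2b1, Eif2b2 and Eif2b3 had none within 10 kb, and for Eif2b5 the nearest lay 7773 bp away, at an end of Dvl3. Eif2a and Eif2d, which encode other proteins that can deliver initiator tRNA, had none within 10 kb.

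The genes of the Eif3 symbol class divided evenly, and of the 13 that encode eIF3 subunits 7 (53.8%) had a boundary peak, against 22.2% of all genes. Boundary peaks lay at Eif3b, Eif3f, Eif3h, Eif3e, Eif3c, Eif3a and Eif3j1, and none at Eif3d, Eif3g, Eif3i, Eif3k, Eif3l, Eif3m and Eif3j2, the last a gene named for its likeness to Eif3j1. Eif3b, a core subunit, stood out with 59 fragments over an expected 8.99, a fold of 6.00 (4.59 to 7.72), in a peak of 859 bp at chr5:140418428-140419286. The other 6 lay between 3.30 at Eif3j1 and 4.03 (2.94 to 5.40) at Eif3f, with overlapping intervals. The Eif3b interval lay above that of Eif3a, the largest subunit's gene, at 3.40 (2.53 to 4.47), and overlapped those of Eif3f, Eif3h, Eif3e, Eif3c and Eif3j1. Eif3c, the gene of another core subunit, had 3.41 (2.36 to 4.77). Near Eif3g and Eif3k the closest peaks lay 5860 and 9193 bp away and were boundary peaks of Ppan and Actn4.

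In the Eif4 class both helicase genes carried peaks, and the gene of the main cap-binding protein did not. Eif4a2 had 69 fragments at the summit over an expected 9.15, the highest fold of all members at 6.90 (5.39 to 8.71). Its peak at chr16:23107261-23107693 contained the start, and further peaks of 3.70 and 3.72 followed within the gene, the only case of 3 boundary peaks at a member. Eif4a1 had 5.39 (4.11 to 6.96) in the widest member peak, 1268 bp at chr11:69670968-69672235, which also reached an end of Senp3. Eif4a3, a helicase of the exon junction complex, and Eif4a3l1, named for its likeness to it, had no peak within 100 kb. Of the helicase cofactor genes, Eif4h had 3.94 (2.83 to 5.35), and Eif4b had its nearest peak 3529 bp away.

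Eif4e2, which encodes the cap-binding protein 4EHP, known for repressing translation, had 5.06 (3.76 to 6.68). Eif4e, Eif4e3 and Eif4e1b, the other genes of cap-binding proteins, had no peak within 10 kb. Of the 4E-binding protein genes, Eif4ebp1 had peaks of 5.52 (4.18 to 7.16) and 3.20 at the same end, Eif4ebp2 had none within 227527 bp, and the nearest to Eif4ebp3 lay 3651 bp away. Eif4enif1, the gene of the eIF4E transporter 4E-T, had none within 10 kb. Among the scaffolds, Eif4g1 had 1 peak at each end with the same fold of 4.13 (2.97 to 5.61), that at the far end being shared with Fam131a. Eif4g2, the gene of a scaffold that lacks the eIF4E-binding part, had peaks of 3.80 (2.85 to 4.96) and 3.15 on either side of the same end.

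Of the late-acting factors, Eif5 and Eif6 carried peaks and Eif5b did not. Eif5, which encodes the GTPase activator of eIF2, had 54 fragments over an expected 8.68 at chr12:111538029-111538600, a fold of 5.68 (4.29 to 7.38), and a second peak of 3.41 inside the gene. Eif6, whose product keeps the large ribosomal subunit from joining early, had 4.55 (3.38 to 6.00). That peak lay 705 bp outside the gene and was also a boundary peak of Mmp24 and BC029722. Eif5b, the gene of the GTPase that joins the subunits, had no peak within 10 kb. Of the 2 genes of the hypusine-modified factor eIF5A, Eif5a is described with the genes next to the window limit, and Eif5a2 had no peak within 1069801 bp.

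The 1 kb window set some of these counts. Just inside it were Eif6, at 705 bp, and the third Eif4a2 peak, at 898 bp. Just outside was Eif5a, where a peak of 4.49 (3.34 to 5.93) at chr11:69920490-69920944 stopped 1014 bp short of the annotated end. That end is not the only start listed for Eif5a, and the summit lay 16 bp from another. Eif4g3 likewise had peaks of 3.41 and 3.65 in the gene, whose nearer edges lay 129 and 726 bp from a listed start and over 1 kb from either end. In all, 31 of 56 members (55.4%) had a peak inside the gene or up to 10 kb from it, against 31.7% of all genes. The other 25 had none, and for 9 of them the nearest peak lay over 100 kb away.

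Peaks lay at the start of these genes rather than the far end. Strand could be assigned to 44 members, of which 18 (40.9%) had a peak within 1 kb of the start end, against 21.6% of the 17492 genes with a strand. At the far end the numbers were 2 members (4.55%), Eif1 and Eif4g1, against 2.16%. Measured from the start to the summit of the strongest start-end peak, 14 of the 18 summits lay inside the gene (77.8%), and so did 77.3% of those at 3757 other genes. The median position was 230.5 bp into the gene, against 228 bp at other genes. The start itself fell inside the peak at 5 of the 18, Eif1ad, Eif1b, Eif2ak3, Eif4a2 and Eif5, a share of 27.8%, against 17.2% elsewhere. Summits upstream were found at Eif1b, Eif2ak3, Eif2s3x and Eif3b, the farthest 413 bp before the start.

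**Figure D3:**
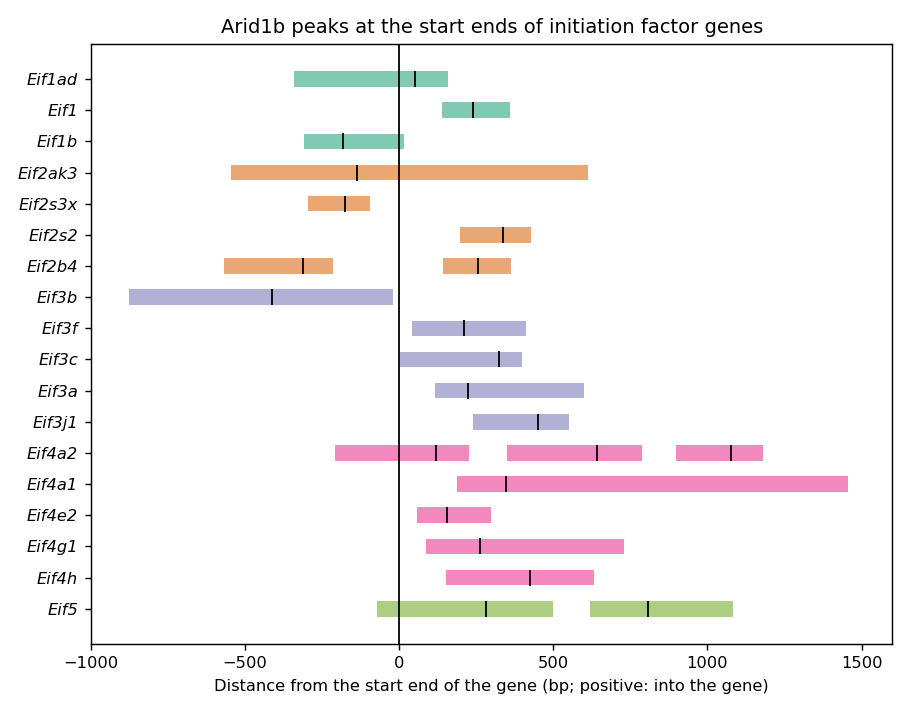
Arid1b peaks (bars) and their summits (black ticks) at the 18 initiation factor genes with a strand and a peak within 1 kb of the start end, drawn by distance from that end in bp, with positive values into the gene. In 14 of the 18 genes the summit of the strongest peak lies to the right of the start, and Eif4a2 and Eif5 show additional peaks farther into the gene.

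Several members carried more than 1 boundary peak: 7 of 56 (12.5%), namely Eif1, Eif2b4, Eif4a2, Eif4ebp1, Eif4g1, Eif4g2 and Eif5, against 4.82% of all genes. That gap includes the higher share of members with any boundary peak. Among genes with at least 1, the counts were 7 of 24 members and 1055 of 4857 genes. A peak was shared with the end of another protein-coding gene at 6 of the 24 members (25%), against 30.9% of all genes with a boundary peak. These were Eif1a, Eif1ad, Eif2b4, Eif4a1, Eif4g1 and Eif6. Which gene such a peak belongs to cannot be told apart. Gene length differed little within the list, with a median of 17393 bp for members with a boundary peak and 18496.5 bp for those without. Over protein-coding genes it did differ, with a median of 24054 bp with a boundary peak and 15544.5 bp without.

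The promoters of the members were rich in CpG, and this feature moved with the presence of a peak among other genes. In 300-base windows around the start, the ratio of observed to expected CpG had a median of 0.857 in the 44 members, against 0.577 over all 17492 genes with a window. It was 0.848 in the 18 members with a boundary peak and 0.857 in the 26 without, and 0.831 and 0.417 in other genes with and without a peak. Among genes with a ratio of at least 0.6, 18 of 40 members (45%) had a boundary peak and so did 39.4% of 8426 other genes. Below it, 0 of 4 members and 6.81% of 9022 other genes had one. The part of CpG content in the share of the members was not tested. Other genes expressed at a like level could not be chosen, since RNA was not measured in these samples.

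**Figure D4:**
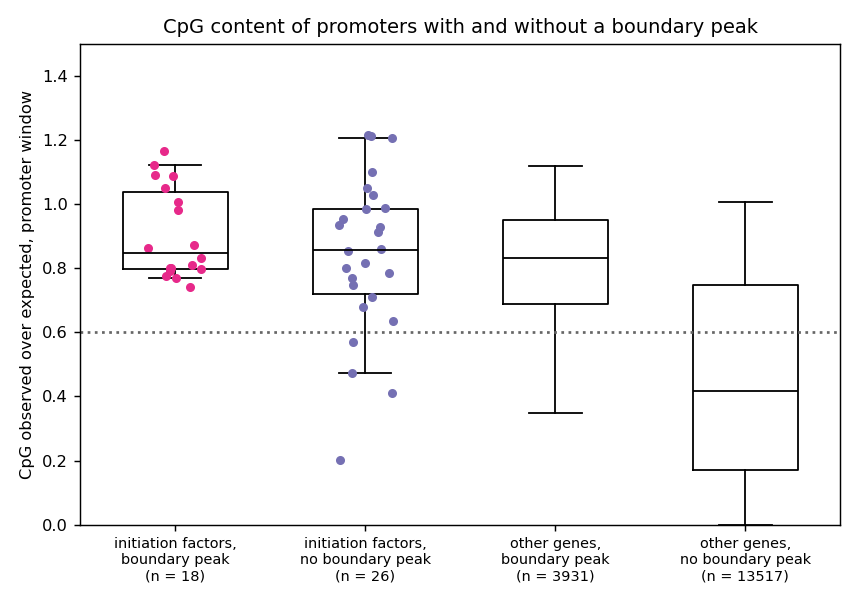
Ratio of observed to expected CpG in the 300-base promoter window (vertical axis) for initiation factor genes with and without an Arid1b boundary peak and for other protein-coding genes with and without one. Points are single initiation factor genes, boxes give quartiles and medians, and whiskers the 5th and 95th percentiles; the medians are 0.848, 0.857, 0.831 and 0.417 from left to right, and the dotted line marks the ratio of 0.6.

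Among motifs in the 300-base windows, the GC box was the most common, at 15 of 18 members with a boundary peak (83.3%) and 17 of 26 without (65.4%), against 72.2% of other genes with a boundary peak and 46.3% of all genes. The ETS core was at 8 of 18 (44.4%) and 12 of 26 (46.2%), against 30.3% of other genes with a boundary peak and 19.1% of all genes. Of other genes without a boundary peak, 38.7% had a GC box and 15.8% an ETS core. Where 2 shares stand unlabelled below, they are in the order other genes with a boundary peak, then all genes. The E-box, the sequence that Myc family factors recognise, was at 6 of 18 members with a boundary peak, Eif1b, Eif3a, Eif3f, Eif4a1, Eif4g1 and Eif4h, and at 2 of 26 without, against 7.91% of all genes and 11.1% of other genes with a boundary peak. AP-1 matches were at 4 of 18 and 1 of 26, against 3.71% of other genes with a boundary peak and 7.03% of all genes. TATAAA was at 2 of 18 (11.1%) and 2 of 26, against 5.9% and 13.3%. The CCAAT box was at 6 of 18 (33.3%) and 8 of 26 (30.8%), below the 40.7% of other genes with a boundary peak and 39.2% of all genes. The YY1 motif was at 3 of 18 and 1 of 26, against 5.34% and 3.21%. The NRF1 motif was at 0 of 18 and 1 of 26, against 2.06% and 1.33%. The cyclic AMP response element was at 0 of 44 members, against 3.54% and 2.33%. None of these differences was tested. The sets also differ in CpG content, with a ratio of at least 0.6 at 90.9% of the members and 48.4% of all genes.

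Some initiation factor genes also contain small nucleolar RNA (snoRNA) genes, which guide modification of ribosomal RNA. All 7 members with a snoRNA gene inside their annotated span, on either strand, had a boundary peak. Eif4a2 holds 5 snoRNA genes and Eif4a1 holds 3, and Eif2ak3, Eif3a, Eif4g1, Eif4g2 and Eif5 hold 1 each. Of 365 other protein-coding genes that contain a snoRNA gene, 143 had a boundary peak (39.2%). This property was looked at after the peaks of these genes were known.

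Lists of genes related to translation and its stress control carried boundary peaks at shares between 44.8% and 61.1%, against 22.2% of all protein-coding genes. With a fold of at least 4 their shares were between 18.8% and 24.1%, against 10.5% of all genes. Of 29 genes of cap-dependent initiation and scanning control, 13 had one, with a median fold of 4.13. The highest was Tsc1, an upstream inhibitor of mTOR, at 5.78 with 55 fragments at the summit, followed by Paip2, which restrains poly(A)-binding protein, at 5.58. The mTOR complex genes Rictor (4.65), Rptor (4.13) and Mtor (3.06) also had one, while Pabpc1, Pdcd4, Larp1 and the S6 kinase genes Rps6kb1 and Rps6kb2 had none.

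Of 18 genes of the integrated stress response, 11 had a boundary peak (61.1%), with a median fold of 3.51, against 22.2% of all genes. The count fell to 4 (22.2%) with a fold of at least 4, against 10.5% of all genes, and to 2 (11.1%) with peaks at the genome background alone, against 11% of all genes. Atf4, the transcription factor whose mRNA is translated when eIF2 is phosphorylated, had 61 fragments at the summit, a fold of 4.87 (3.74 to 6.23). Ppp1r15a, which directs a phosphatase to eIF2, had 4.49, and its constitutive counterpart Ppp1r15b had 3.43. The stress-induced transcription factor gene Ddit3 (CHOP) had 4.32. Genes of elongation and termination had 8 of 16 (50%), highest at Eef1d (6.77, 5.28 to 8.56) and Eef1a1 (5.28), both genes of elongation factor eEF1, which loads aminoacyl-tRNA. Dhps (4.13) and Dohh (3.49), the enzymes that place hypusine on eIF5A, both had a boundary peak.

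Set beside other large sets of housekeeping machinery, initiation factor genes lay between them. Boundary peaks were at 52 of 87 cytosolic ribosomal protein genes (59.8%), with a median fold of 4.06, and at 15 of 39 proteasome subunit genes (38.5%), with a median of 3.92. With a fold of at least 4, 28 ribosomal protein genes (32.2%) and 6 proteasome genes (15.4%) had one. Whether these shares differ from the 42.9% of the initiation factors was not tested, since genes of 1 library are not replicates.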

How the data were processed

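Arid1b ChIP and input were compared in 1 library each. Per the submitters' processing notes, the tools were MACS2 2.1.1, Bowtie2 2.2.5, FastQC 0.11.8 and Picard, on mm10; no parameters, filters or treatment of duplicate reads are stated there. The authors deposited a narrow peak list with a fold enrichment (linear ratio), a -log10 p-value (lowest 5.02), a -log10 q-value and a summit offset per peak. The authors' score equalled 10 times the -log10 p-value without decimals in 100% of peaks and was not used further.

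Pileups and expected levels were solved from the authors' fold and p-value, taken as MACS2 defines them, to within 0.001 in 100% of peaks. A boundary peak has any part within 1 kb of either annotated gene end. Start sites, strand and sequences came from a RefSeq promoter table of GRCm38.p6, matched for 44 of 56 members and 17492 genes. CpG expectation was the product of C and G counts over 300 bases. Python 3.11.15, pandas 2.3.3 and SciPy 1.17.1 were used, and functions were tested on simulated data. Pileup intervals have 95% confidence.

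Members, lists and tests were chosen with earlier results of these data known. The roles, the CpG comparison, the snoRNA count and the choice of Eif3b and of the genes named from the related lists followed a look at the values. All 56 members are named by rule, and promoters by the highest fold in a class. The symbol Dap5 matched no gene. Alternatives changed the peaks kept, the window, and the members.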

Additional observations from a re-analysis of the deposited data

How the results depend on the processing

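Of 114 alternative values, 80 stayed within 1.5 times the reported count or, for the median fold, inside 2.97 to 5.61, and 34 moved. That range is the counting interval of the middle member alone and does not measure the spread of the median. The median fold, 4.13 in the main setting, was 5.06 with -log10 q of at least 10 and 5.23 with a fold of at least 4. Both were counted as not moved. Members with a boundary peak numbered 15 with -log10 q of at least 10 (10.5% of all genes), 14 with a fold of at least 4 (10.5%) and 12 with expected level at the genome background (11%); these settings keep fewer peaks by construction. Under them, in the same order, start-end peaks were at 11, 11 and 9 members, Eif2 had 2, 2 and 2, Eif3 had 2, 2 and 4, cap and scanning regulators 7, 7 and 8, stress response 4, 4 and 2, elongation 3, 3 and 3, ribosomal proteins 27, 28 and 20, and proteasome 7, 6 and 6. At the genome background Eif1 had 2, Eif4 had 3 and Eif6 had 0. Eif6 also had 0 with 500 bp, Eif5 had 2 with 5 kb and within 10 kb, and cap and scanning regulators had 21 within 10 kb. Members numbered 23 with 500 bp, 28 with 5 kb and 24 by summit, against 20%, 27% and 21.5% of all genes. Without those sharing a peak they numbered 18 of 50, an exclusion that drops only members with a boundary peak. Any listed start, an alternative chosen after seeing the data, gave 20 of 44. For these last 2 settings no matching share over all genes is given, and the 22.2% of the main setting does not apply. No paired analysis was possible because each group had 1 library, and for the same reason no replicate could be left out. What depth hides cannot be given, as total read numbers were not used here.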

Other observations

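Argonaute genes, which carried the older symbols Eif2c1 to Eif2c4 in the RefSeq table and belong to small RNA silencing, were not counted as initiation factors. Of these 4 genes, Ago2, the member whose protein cleaves its targets, had a boundary peak of 5.37 (4.02 to 7.03), and 3, Ago2 included, had a peak inside or up to 10 kb away. Mtif2 and Mtif3, the mitochondrial initiation factor genes, had no boundary peak, and 1 of these 2 had a peak inside or up to 10 kb away. Of all protein-coding genes, 22.2% had a boundary peak and 31.7% a peak inside or up to 10 kb away. None of the 11 pseudogenes in the table with an Eif symbol had a peak in it or within 1 kb. The share over all pseudogenes is not given here, so this count cannot be read as particular to these 11.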
